A study of Mus musculus with 18 samples.

Results

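The transcriptome of retinal pigment epithelium (RPE) from Itgb5-/- mice was set against that of WT129 mice, using the 3 libraries of each group, which are 6 of the 18 libraries of the study. The genes described were all those whose normalized count reached 10 in 3 or more of these 6 libraries, 18653 of the 55421 genes listed. Itgb5-/- mice lack the beta-5 integrin chain by genotype, WT129 is the wild-type group of the same table, and both were collected at postnatal day 25, 1 h after light onset, without treatment and used directly ex vivo. The labels give neither the targeted exons, the number of animals in a library nor whether the groups were littermates, and they call the libraries biological replicates, so the p-values measure the spread between these libraries. A separately normalized table held C57BL/6 (6 libraries), Tyro3-/-V1 (3) and Mertk-/-V2Tyro3-/-V2 (3) RPE of the same age and hour, and it is used here only for values side by side.

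The RPE is the pigmented cell layer behind the photoreceptors. It renews the visual pigment through the visual cycle and engulfs the tips that photoreceptor outer segments shed each day. At its apical surface the integrin alpha-v beta-5 binds outer segments through the bridging protein MFG-E8 and signals through focal adhesion kinase to the receptor tyrosine kinase MERTK, which drives their internalization. In the mouse, loss of Itgb5 is known to abolish the daily peak of uptake that follows light onset, whereas loss of Mertk blocks internalization.

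The libraries held 26287189, 21871157 and 25242322 recovered reads in Itgb5-/- RPE and 21767887, 24519972 and 22280556 in WT129 RPE. The first principal component held 37.1% of the variance and mainly set WT129 replicate 2 apart, and the second held 23.98% and mainly set WT129 replicate 3 apart. By the higher of Xist and summed Y-linked transcripts, 1 of 3 Itgb5-/- libraries and 2 of 3 WT129 libraries were called male. Y-linked sums were 4291 to 4855 in those called male. Among those called female they were 181 and 2.76 in Itgb5-/- replicates 2 and 3 and 137 in WT129 replicate 3. The source of these Y-linked reads was not tested. Rpe65, the retinoid isomerase of the visual cycle, was abundant in all 6 libraries. It had normalized counts of 94680, 92507 and 92394 in Itgb5-/- RPE and 83311, 72782 and 57520 in WT129 RPE. Best1, another RPE marker, was low, with 26.5, 25.6 and 11.05 in Itgb5-/- RPE and 9.74, 24.7 and 17.3 in WT129 RPE. All libraries also carried transcripts of neighbouring tissues, described below.

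Of 18653 genes, 7 passed an adjusted p of 0.05 (limma on log2 of the normalized count plus 1, Benjamini-Hochberg), which is 0.0375%. Of these, 3 were higher in Itgb5-/- RPE (0.0161%) and 4 were lower (0.0214%). At an unadjusted p below 0.05 there were 1544 genes (8.28%), of which 618 were higher (3.31%) and 926 lower (4.96%), and 2864 genes (15.4%) had groups that did not overlap. On recovered reads, edgeR called 5 genes (0.0268%) and DESeq2 called 429 (2.3%), 81 of them higher (0.434%) and 348 lower (1.87%). Leaving out any 1 library other than WT129 replicate 2 left 0 genes past the threshold, with 889 to 2622 at an unadjusted p below 0.05. Leaving out WT129 replicate 2 left 10, among them 6 of the 7. A term for sex, which is uneven between the groups, left 0 genes past the threshold (1340 at an unadjusted p below 0.05); Itgb5 then had a log2 fold change of -1.50 and an adjusted p of 0.0723.

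The targeted gene was lower in every Itgb5-/- library. Itgb5 (ENSMUSG00000022817, chromosome 16, 33829665 to 33949338, GRCm38) had normalized counts of 1254, 1205 and 1139 in Itgb5-/- RPE, against 3694, 4171 and 3001 in WT129 RPE. The groups did not overlap, and the Itgb5-/- libraries lay within a narrow range at 33.1% of the WT129 mean. The log2 fold change was -1.58 (95% interval -1.91 to -1.25, limma adjusted p = 0.0176). An exact two-sided permutation test over the 20 splits of 3 against 3 libraries gave p = 0.1, the smallest it allows. The values are summed over the gene, so they do not show which exons the remaining reads came from.

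**Figure D1:**
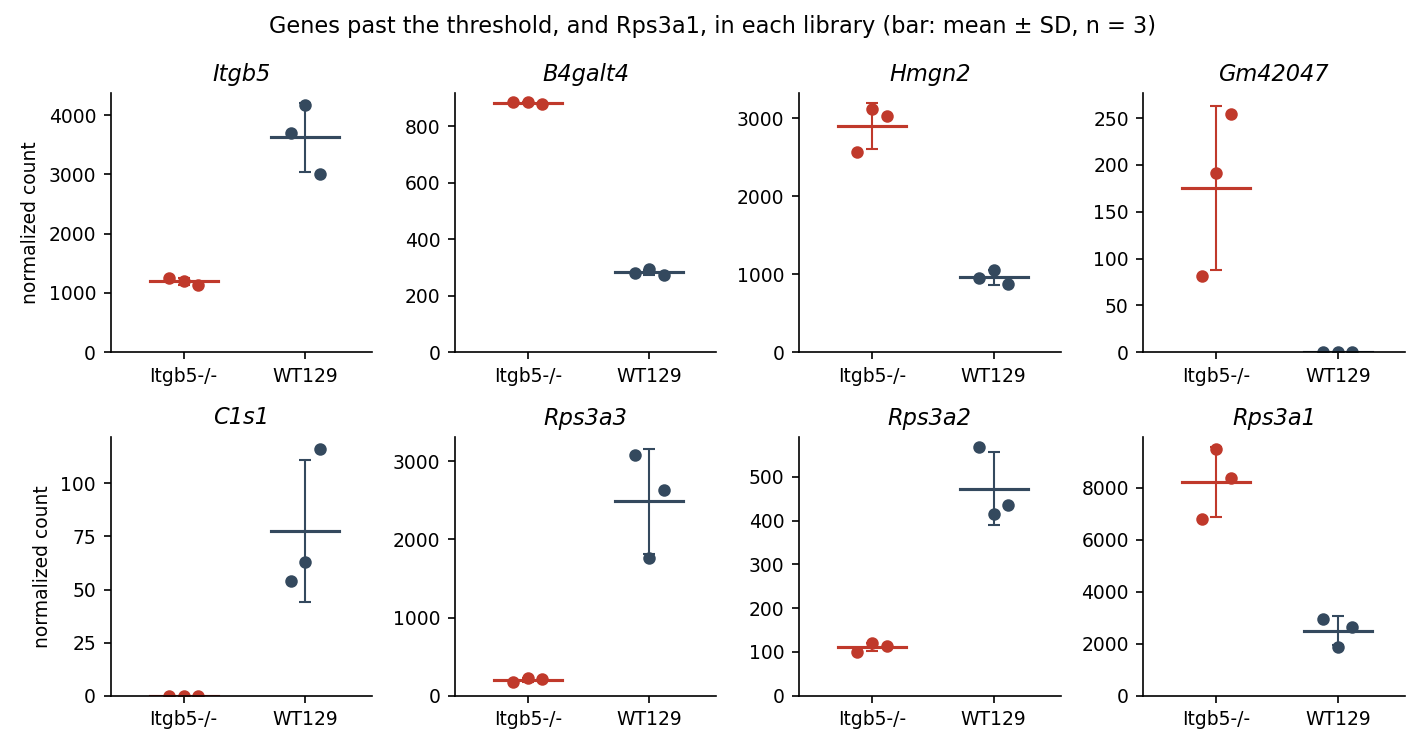
Normalized count (y axis, linear, from 0) of the 7 genes past the threshold and of Rps3a1 in each library, Itgb5-/- left and WT129 right. Points are libraries and bars are the mean ± SD (n = 3 each); in all 8 panels the groups do not overlap, and Gm42047 in WT129 and C1s1 in Itgb5-/- lie at 0.

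Apart from Itgb5, the genes past the threshold were not genes of outer segment uptake. They were Rps3a3 and Rps3a2, processed copies of the ribosomal protein gene Rps3a1, Hmgn2, which encodes a nucleosome-binding protein, B4galt4, which encodes a galactosyltransferase of the Golgi, C1s1, which encodes a serine protease of the first complement component, and Gm42047, a long intergenic noncoding RNA.

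The Rps3a genes are shown by sequence because their reads differ between the groups in opposite directions while their letters hardly differ. Over 795 aligned bases Rps3a3 (chromosome 13, 108670603 to 108671397, plus strand) differed from Rps3a1 (chromosome 3, 86137940 to 86142702, minus strand) at 9 positions, an identity of 98.87%. Rps3a2 (chromosome 14, 88123017 to 88123808, minus strand) differed from Rps3a1 at 4 of 792 positions, an identity of 99.49%. A window of 90 bases, bases 579 to 668 of the coding sequence of Rps3a1 and of the matching stretch of the copies, reads as follows 5′ to 3′ in the transcripts of GENCODE M21 on GRCm38, with the 4 positions at which the 3 differ in capitals.
Rps3a1: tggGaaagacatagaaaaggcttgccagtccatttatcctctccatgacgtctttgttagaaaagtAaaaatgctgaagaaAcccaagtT
Rps3a2: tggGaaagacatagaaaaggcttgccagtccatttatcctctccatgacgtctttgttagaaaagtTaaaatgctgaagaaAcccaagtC
Rps3a3: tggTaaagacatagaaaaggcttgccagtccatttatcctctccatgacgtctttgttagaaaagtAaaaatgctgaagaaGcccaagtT

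Rps3a3 had normalized counts of 172, 222 and 209 in Itgb5-/- RPE, against 3081, 1758 and 2627 in WT129 RPE (log2 fold change -3.59, limma adjusted p = 0.00714). Rps3a2 had 101, 119 and 114 in Itgb5-/- RPE, against 568, 416 and 437 in WT129 RPE (log2 fold change -2.07, adjusted p = 0.0221). The parent gene Rps3a1, which encodes a protein of the small ribosomal subunit, went the other way, with 6817, 9492 and 8393 in Itgb5-/- RPE and 2967, 1879 and 2650 in WT129 RPE. Its groups did not overlap, but it did not pass (log2 fold change 1.73, adjusted p = 0.0817). In WT129 RPE the copy Rps3a3 and the parent gene were at like levels, whereas in Itgb5-/- RPE the parent gene held nearly all of their counts.

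Because the 3 sequences are so alike, the value of each gene depends on how reads were placed among them, and each is uncertain. Summed over the 7 Rps3a genes and copies of at least 95% identity, the normalized counts were 7386, 10201 and 9042 in Itgb5-/- RPE and 6941, 4267 and 6244 in WT129 RPE. The mean sums were 8877 ± 1415 and 5817 ± 1388 (SD, n = 3 each), a ratio of 1.53, which is less than the differences of Rps3a1, Rps3a2 and Rps3a3. In C57BL/6 RPE, in the separately normalized table, Rps3a1 ranged from 6899 to 11566, Rps3a3 from 83.0 to 272 and Rps3a2 from 47.6 to 126 over 6 libraries. All 3 ranges lie nearer to the Itgb5-/- values than to the WT129 values, a difference between tables that was not tested. Some gaps between the tables concern whole genes: 49 genes were at 20 or more in every WT129 library and at 2 or less in every C57BL/6 library, and 76 the reverse. Of the 49, 41 were at 20 or more in every Itgb5-/- library, 0 were at 2 or less in every one, and 8 met neither limit. Of the 76, 1 was at 20 or more, Gm42047, 54 were at 2 or less and 21 met neither limit. The parts of strain and of separate counting in this were not tested.

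Hmgn2 (chromosome 4, 133964738 to 133968650) likewise went the opposite way from a near copy, Gm10282, though in WT129 RPE that copy stayed below Hmgn2. It had normalized counts of 2564, 3118 and 3023 in Itgb5-/- RPE, against 946, 1058 and 871 in WT129 RPE, and rose (log2 fold change 1.597, limma adjusted p = 0.0123). Gm10282 on chromosome 8, 98.9% identical to Hmgn2 over 732 bases, had 152, 186 and 200 in Itgb5-/- RPE and 463, 547 and 467 in WT129 RPE (log2 fold change -1.46, adjusted p = 0.0817). Hmgn2 and its 13 copies together averaged 3206 ± 335 in Itgb5-/- RPE and 1661 ± 133 in WT129 RPE (SD, n = 3 each), a ratio of 1.93. In C57BL/6 RPE Hmgn2 ranged from 3755 to 4209 and Gm10282 from 179 to 321, again with the Itgb5-/- libraries the nearer for both genes. This difference between tables was not tested.

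B4galt4 (chromosome 16, 38742264 to 38769049) was the gene past the threshold that lay closest to Itgb5, 4.79 Mb away. Its normalized counts were 884, 884 and 880 in Itgb5-/- RPE, against 281, 293 and 274 in WT129 RPE. The spread within each group was small beside the difference, and the level was 312% of WT129 (log2 fold change 1.64, 95% interval 1.36 to 1.92, limma adjusted p = 0.0111). No transcript of at least 95% identity was found for it. In C57BL/6 RPE it ranged from 597 to 744.

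Within 10 Mb of Itgb5, 133 other genes were tested and B4galt4 alone passed. Groups did not overlap for 23 genes higher and 12 lower in Itgb5-/- RPE, 26.3% of the 133, beside 15.4% over all genes. DESeq2 called 5 of them (3.76%, beside 2.3% over all genes), and apart from B4galt4 these were lower. Dynlt2b, a dynein light chain gene 1.40 Mb away, had 126, 107 and 104 in Itgb5-/- RPE and 240, 279 and 234 in WT129 RPE (log2 fold change -1.16, limma adjusted p = 0.232). Slc15a2, which encodes a peptide transporter, had 1218, 1485 and 1534 in Itgb5-/- RPE and 2087, 1819 and 2184 in WT129 RPE (log2 fold change -0.53, adjusted p = 0.358). The tested genes nearest to Itgb5, Gm34967, Umps and Muc13, had overlapping groups, with log2 fold changes of 0.43 (SE 0.56), 0.04 (SE 0.17) and 0.26 (SE 0.41). Somewhat farther out groups did not overlap for Heg1, with 5022, 3639 and 3761 in Itgb5-/- RPE and 3095, 3535 and 3399 in WT129 RPE (0.30, adjusted p = 0.652), or for Slc12a8, with 61.0, 73.6 and 86.5 in Itgb5-/- RPE and 146, 157 and 89.6 in WT129 RPE (-0.79, adjusted p = 0.558).

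**Figure D2:**
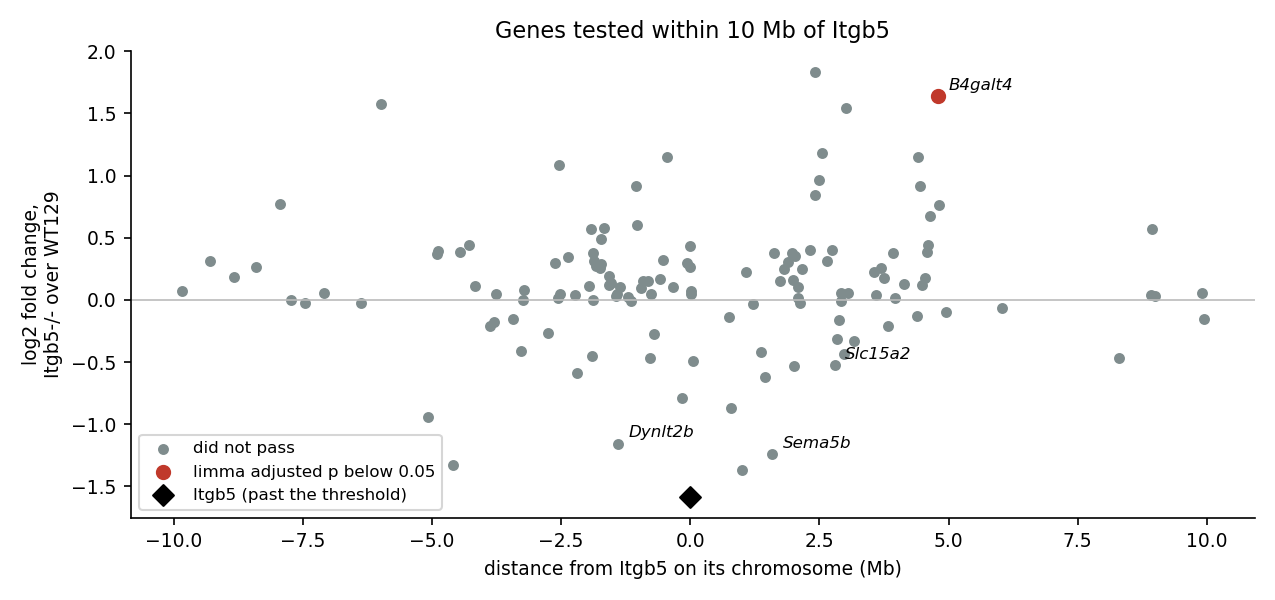
Log2 fold change of Itgb5-/- over WT129 (y axis) against distance from Itgb5 in Mb (x axis, linear) for the 133 tested genes within 10 Mb and for Itgb5 at 0. B4galt4, at 4.79 Mb and 1.64, is the one neighbour past the threshold, and Dynlt2b, at -1.40 Mb and -1.16, is among the lowest.

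There were 4 tested genes with 0 reads in every library of 1 group. Gm42047 (chromosome 8, 121833247 to 121841178) had normalized counts of 81.3, 192 and 254 in Itgb5-/- RPE and 0 in the 3 WT129 libraries, at least 58.3-fold higher with a floor of 3 reads per library (limma adjusted p = 0.0111). That bound rests on how reads were placed: summed with its 4 copies of at least 95% identity, the counts were 81.3, 194 and 256 in Itgb5-/- RPE and 8.66, 13.7 and 0 in WT129 RPE, a 23.7-fold ratio of the means. C1s1 (chromosome 6, 124530345 to 124542359) had 0 in the 3 Itgb5-/- libraries and 54.1, 63.2 and 116 in WT129 RPE, at least 26.6-fold lower (adjusted p = 0.0176). C130046K22Rik had 22.99, 23.4 and 31.3 in Itgb5-/- RPE and 0 in WT129 RPE, and Gm43305 averaged 11.96 in Itgb5-/- RPE and 0 in WT129 RPE. Neither of them passed (adjusted p = 0.0969 and 0.256). In C57BL/6 RPE Gm42047 ranged from 279 to 921 and C130046K22Rik from 15.7 to 31.4, so both were detected there as in Itgb5-/- RPE, while C1s1 ranged from 187 to 271, so it was detected there as in WT129 RPE.

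C1s1 lies in a cluster of genes for the proteases C1r and C1s of the classical complement pathway. Its neighbour C1ra (chromosome 6, 124512405 to 124523443) had 20.3, 7.80 and 17.5 in Itgb5-/- RPE, against 108, 88.8 and 104 in WT129 RPE (log2 fold change -2.74, limma adjusted p = 0.177). The groups of C1ra did not overlap, but it did not pass. C1rb, further along the cluster, had 97.3, 46.8 and 58.0 in Itgb5-/- RPE and 60.6, 102 and 51.9 in WT129 RPE, with overlapping groups. In C57BL/6 RPE C1rb was at 0 in every library, while C1ra ranged from 226 to 286. How reads were placed between C1ra and C1rb was not tested. C1rl, on the other side of C1ra, had a log2 fold change of 0.13 (adjusted p = 0.906). The near copy C1s2, 95.9% identical to C1s1, was too low to be tested, and C1s1 and C1s2 together averaged 5.36 ± 3.33 in Itgb5-/- RPE and 89.96 ± 31.8 in WT129 RPE (SD, n = 3 each).

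Genes that came next after the threshold are given as values. Rgs5, a regulator of G protein signalling known from pericytes, had 1205, 1054 and 1035 in Itgb5-/- RPE and 556, 526 and 584 in WT129 RPE (log2 fold change 0.98, limma adjusted p = 0.0817, DESeq2 adjusted p = 3.43e-08). Slc6a20a, which encodes an amino acid transporter of the RPE, had 16209, 15993 and 15047 in Itgb5-/- RPE and 10275, 9749 and 9514 in WT129 RPE (log2 fold change 0.68, limma adjusted p = 0.232). Glb1, the lysosomal beta-galactosidase, had 653, 599 and 711 in Itgb5-/- RPE and 1238, 1327 and 1046 in WT129 RPE (log2 fold change -0.88, adjusted p = 0.189). Gpx3, a secreted glutathione peroxidase, had 430, 219 and 194 in Itgb5-/- RPE and 1073, 1174 and 2219 in WT129 RPE (log2 fold change -2.42, adjusted p = 0.189). Serinc2, Slc35a5 and Cyb561 had log2 fold changes of 1.87, 0.86 and 1.07, and Wdr72 and Trnp1 of -1.68 and -2.20, with adjusted p between 0.0969 and 0.256 over these 5. All 9 had groups that did not overlap.

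Transcripts of rod photoreceptors, whose outer segments touch the RPE, formed the marker list with the most members called by DESeq2. The 26 tested rod markers had log2 fold changes below 0 throughout, with a median of -1.49 beside 0.04 over all genes, and 23 had all Itgb5-/- libraries below all WT129 libraries, beside 7.68% of all genes. None passed limma, while DESeq2 called 20 of the 26 lower, beside 1.87% of all genes. Gnat1, the rod transducin alpha chain, had 12619, 19739 and 31078 in Itgb5-/- RPE and 47905, 98248 and 50286 in WT129 RPE (log2 fold change -1.64, limma adjusted p = 0.355). Sag, the rod arrestin, had 7196, 10930 and 14738 in Itgb5-/- RPE and 27243, 49617 and 28585 in WT129 RPE.

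WT129 replicate 2 was the highest library for these genes, but the Itgb5-/- libraries also lay below the other two WT129 libraries. The summed rod markers were 116731, 150714 and 202343 in Itgb5-/- RPE and 285837, 613229 and 310294 in WT129 RPE. Without WT129 replicate 2 the rod median was -1.13, and over all settings tried it ranged from -1.73 to -1.06. In bulk RNA, fewer cells of a type and less RNA per cell cannot be told apart.

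Markers of other retinal neurons lay lower too, though with more overlap. All 14 cone markers had log2 fold changes below 0 (median -0.72), 4 of them without overlap, beside 7.68% of all genes in that direction, and DESeq2 called 1, beside 1.87%. It was Opn1mw, the medium-wave cone opsin, with 83.1, 72.5 and 113 in Itgb5-/- RPE and 193, 233 and 168 in WT129 RPE. All 25 tested markers of inner retinal neurons were below 0 (median -1.08), with 7 not overlapping and 4 called by DESeq2, beside the same 7.68% and 1.87% of all genes. Isl1, a transcription factor of bipolar and amacrine cells, had 26.5, 40.1 and 47.9 in Itgb5-/- RPE and 79, 385 and 154 in WT129 RPE (log2 fold change -2.14, limma adjusted p = 0.366). Without WT129 replicate 2 the medians were -0.24 for cones and -0.45 for inner retinal neurons. Of the 15 markers of Muller glia and astrocytes, 11 were above 0 and 4 below 0. Their median was 0.10, which was -0.04 without Itgb5-/- replicate 1. DESeq2 called 2 of the 15, both lower and without overlap, beside the same shares of all genes. They were the lipid transporter gene Abca8a (log2 fold change -1.27) and Dkk3 (-0.94), which encodes a secreted Dickkopf family protein.

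Markers of striated muscle went the other way. All 19 had log2 fold changes above 0, with a median of 1.38. Groups did not overlap for 9 of them, beside 7.67% of all genes, and DESeq2 called 10, beside 0.434% of all genes, while limma called none. Acta1, skeletal alpha-actin, had 5649, 2568 and 1595 in Itgb5-/- RPE and 833, 1232 and 1061 in WT129 RPE. The summed muscle markers were 59999, 25068 and 16122 in Itgb5-/- RPE and 8184, 11486 and 15152 in WT129 RPE, with Itgb5-/- replicate 1 the highest, and without it the median was 0.90.

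Among the remaining tissues, the lens and ocular surface markers varied widely within the groups. Summed lens markers ranged from 49713 to 1097360 in Itgb5-/- RPE and from 68230 to 366440 in WT129 RPE, with Itgb5-/- replicate 2 the highest. Summed markers of the ocular surface epithelium ranged from 313414 to 503355 in Itgb5-/- RPE and from 158705 to 448021 in WT129 RPE, with WT129 replicate 2 the lowest. Summed markers of microglia and macrophages were 19681, 15943 and 15847 in Itgb5-/- RPE and 14852, 13230 and 13841 in WT129 RPE. Their median log2 fold change was 0.23, or 0.02 without Itgb5-/- replicate 1. Of the 29, 23 were above 0 and 6 below 0, and 4 were higher without overlap, beside 7.67% of all genes. DESeq2 called 1 of the 29 higher, beside 0.434% of all genes. It was Ptprc, the leukocyte antigen CD45 (226, 210 and 168 in Itgb5-/- RPE, 127, 119 and 111 in WT129 RPE). Among 11 tested lymphocyte and granulocyte markers DESeq2 called S100a9 higher, beside the same 0.434% of all genes. S100a9, a neutrophil protein, had 118, 661 and 168 in Itgb5-/- RPE and 39, 32 and 36.6 in WT129 RPE. The 15 markers of the ciliary body and iris epithelium had a median of -0.52 (-0.30 without WT129 replicate 3). Of these, 14 were below 0 and 1 above 0, and 4 were lower without overlap, beside 7.68% of all genes. DESeq2 called 1 of the 15 lower, beside 1.87% of all genes. Optc, a matrix protein made by the ciliary body, had 413, 168 and 51.6 in Itgb5-/- RPE and 924, 450 and 5377 in WT129 RPE. Markers of endothelium (20 tested), fibroblasts and mural cells (20), melanocytes and Schwann cells (13) and erythroid cells (8) had medians of 0.20, 0.23, 0.12 and 0.51, and none of their members passed limma.

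**Figure D3:**
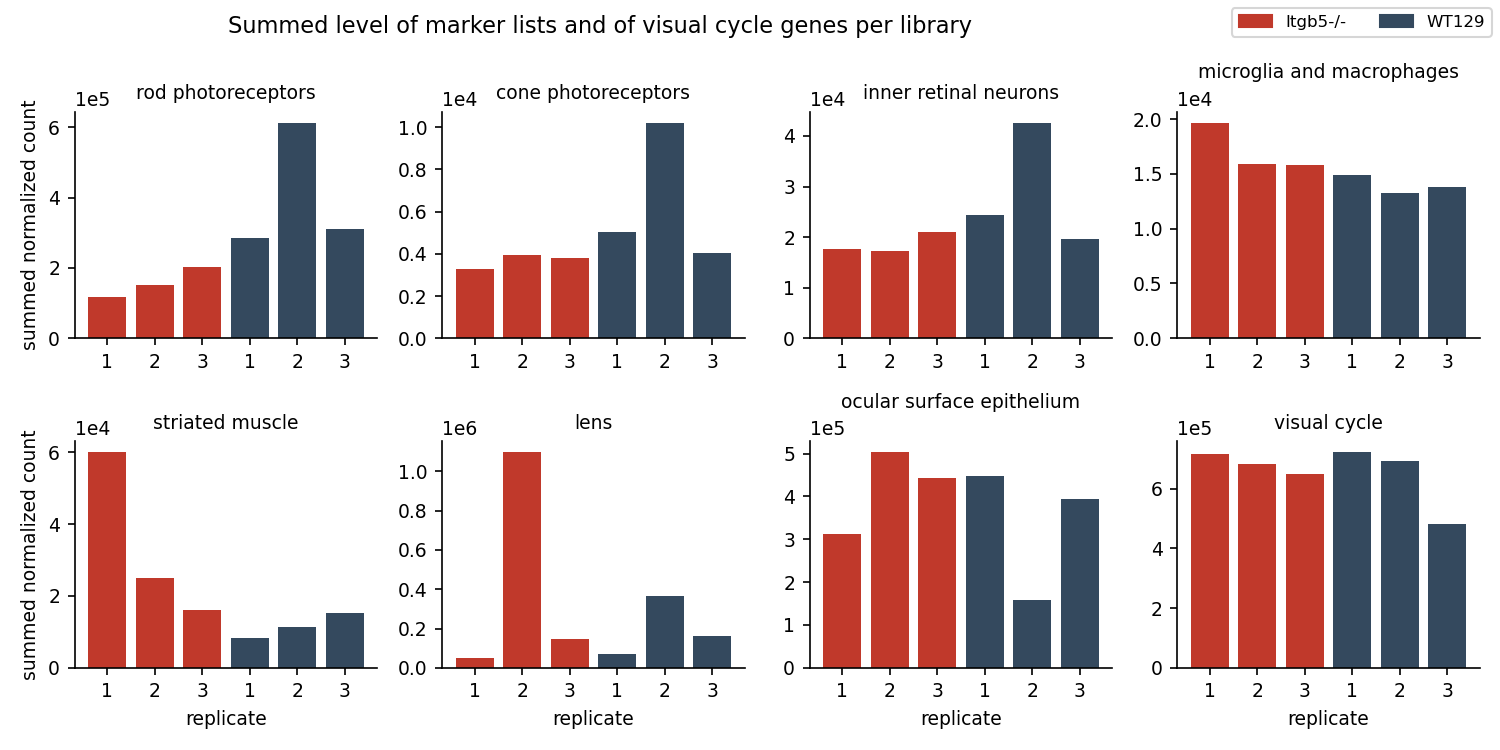
Summed normalized count (y axis, linear, from 0, scale differing between panels) of 7 marker lists and of the visual cycle genes in each library, Itgb5-/- replicates 1 to 3 left and WT129 replicates 1 to 3 right. Rod markers sum to 116731 to 202343 in Itgb5-/- and 285837 to 613229 in WT129, muscle markers are highest in Itgb5-/- replicate 1, and lens markers are highest in Itgb5-/- replicate 2.

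Among the 20 receptors and ligands of outer segment binding and uptake, Itgb5 alone passed. Itgav, the alpha-v partner chain of Itgb5, had 13037, 11918 and 11055 in Itgb5-/- RPE and 12118, 9675 and 9019 in WT129 RPE (log2 fold change 0.23, 95% interval -0.12 to 0.58). Mfge8, the bridging ligand, had 2354, 2680 and 2809 in Itgb5-/- RPE and 3098, 3009 and 2287 in WT129 RPE (-0.09, interval -0.44 to 0.26). Groups overlapped for both. The intervals are not limits of detection: with 3 libraries a group larger changes also went uncalled, such as Rgs5 at 0.98 (limma adjusted p = 0.0817).

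The receptor kinases of the TAM family overlapped between the groups as well. Mertk had a log2 fold change of 0.10 (95% interval -0.39 to 0.60), Tyro3 of 0.28 and Axl of 0.05, and that of Mertk was negative without WT129 replicate 3. Their ligand Gas6 had 3427, 3706 and 3421 in Itgb5-/- RPE and 4040, 4554 and 4483 in WT129 RPE, lower in all 3 without passing (-0.31, limma adjusted p = 0.515). The other ligand, Pros1, had a log2 fold change of 0.22. Cd47, the surface signal that restrains engulfment, had 3083, 3076 and 3192 in Itgb5-/- RPE and 4590, 3389 and 4728 in WT129 RPE (-0.43, adjusted p = 0.513). Tulp1, which is also a rod gene, was called by DESeq2 (log2 fold change -1.56, limma adjusted p = 0.305) and moved with the rod markers above, whose part in it was not tested. The median of the 20 was 0.05, and DESeq2 called 2 of the 20 lower, beside 1.87% of all genes.

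Downstream of the receptors, none of 29 genes of engulfment signalling and actin passed by limma or DESeq2. Of these, 27 had log2 fold changes above 0, the median was 0.18, and 8 had groups that did not overlap, all higher in Itgb5-/- RPE, beside 7.67% of all genes. They included Ptk2, focal adhesion kinase, with 2108, 2049 and 2031 in Itgb5-/- RPE and 1859, 1864 and 1837 in WT129 RPE (log2 fold change 0.15, limma adjusted p = 0.701). The others included the adaptors Crk and Crkl (0.30 and 0.34), the exchange factor Dock1 (0.42), the unconventional myosin Myo7a (0.32) and the kinase Src (0.29). The GTPase gene Rac1, on which Dock1 acts, had overlapping groups (0.15, and -0.002 without WT129 replicate 2). Without that library the median of the list was 0.09.

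No other integrin gene passed limma. Of 25 tested integrin genes limma called Itgb5, and DESeq2 also called Itga2 higher, beside 0.434% of all genes. Itga2, a collagen-binding alpha chain, had 59.2, 106 and 81.9 in Itgb5-/- RPE and 40.04, 34.8 and 20.4 in WT129 RPE. Among other alpha-v partner chains, Itgb8 had a log2 fold change of 0.21, Itgb6 of 0.49 and Itgb1 of 0.19, and none of these passed. None of 42 genes of the integrin adhesion complex passed, with a median of 0.11 and 9 genes higher without overlap, beside 7.67% of all genes. Alpha-v integrins activate latent TGF-beta. Of 27 genes of its activation and targets DESeq2 called the receptor gene Tgfbr2 higher, beside the same 0.434% of all genes. Tgfbr2 had 2047, 1794 and 1937 in Itgb5-/- RPE and 1319, 1165 and 1449 in WT129 RPE (log2 fold change 0.56, limma adjusted p = 0.353). Of 42 extracellular matrix genes, DESeq2 called Fbln5 higher (0.48) and 2 lower, beside 0.434% and 1.87% of all genes. Those lower included Impg2 (-1.35), a matrix proteoglycan made by photoreceptors.

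None of 24 genes of phagosome maturation passed (median 0.06), and Kif5b, a kinesin heavy chain, had a log2 fold change of 0.37 and Atg7 of 0.29. None of 30 lysosomal genes passed limma, and DESeq2 called Glb1 lower, beside 1.87% of all genes. Without overlap, 5 were lower and 1 higher, beside 7.68% and 7.67% of all genes. Ctsl, a lysosomal protease, had 10108, 11055 and 9907 in Itgb5-/- RPE and 12716, 19043 and 13134 in WT129 RPE (log2 fold change -0.51, limma adjusted p = 0.519).

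None of 19 visual cycle genes passed limma, the median was 0.07, and Rpe65 was higher in all 3 Itgb5-/- libraries without passing (log2 fold change 0.40, 95% interval -0.01 to 0.82, adjusted p = 0.606). Lrat, the retinol esterifying enzyme, had 35150, 31346 and 31020 in Itgb5-/- RPE and 38336, 32650 and 28860 in WT129 RPE (-0.03). Rlbp1, the retinaldehyde-binding protein, had a log2 fold change of 0.17. DESeq2 called 2 lower, beside 1.87% of all genes. These 2, Rdh8 and Rbp3, are photoreceptor genes (-1.41 and -1.34) and were lower along with the rod markers, whose part in them was not tested.

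Among 27 RPE identity genes none passed limma. DESeq2 called Slc6a20a higher and 3 lower, beside 0.434% and 1.87% of all genes. Among those lower were Rax and Crx, which are transcription factor genes of retinal progenitors and photoreceptors (log2 fold changes of -1.40 and -1.54). RPE transport genes (33), cell junction genes (27) and melanin genes (21) had medians of 0.05, 0.24 and 0.05, and that of the cell junction genes was 0.07 without WT129 replicate 2. Slc6a6, the taurine transporter, had 16372, 14704 and 15074 in Itgb5-/- RPE and 18559, 23880 and 24347 in WT129 RPE (-0.52, limma adjusted p = 0.403). Mlph, which links melanosomes to myosin, had 1551, 1443 and 1619 in Itgb5-/- RPE and 2178, 2289 and 2307 in WT129 RPE (-0.56, adjusted p = 0.256), and Gpnmb, a melanosome protein also made by macrophages, had a log2 fold change of -1.04. Cldn19, a tight junction claudin of the RPE, had 92.8, 39.0 and 27.6 in Itgb5-/- RPE and 160, 298 and 415 in WT129 RPE (-2.51, adjusted p = 0.305). DESeq2 called Slc6a6, Mlph, Gpnmb and Cldn19, and limma called none of them. The transport, cell junction and melanin lists each had 2 members called lower by DESeq2, beside 1.87% of all genes.

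**Figure D4:**
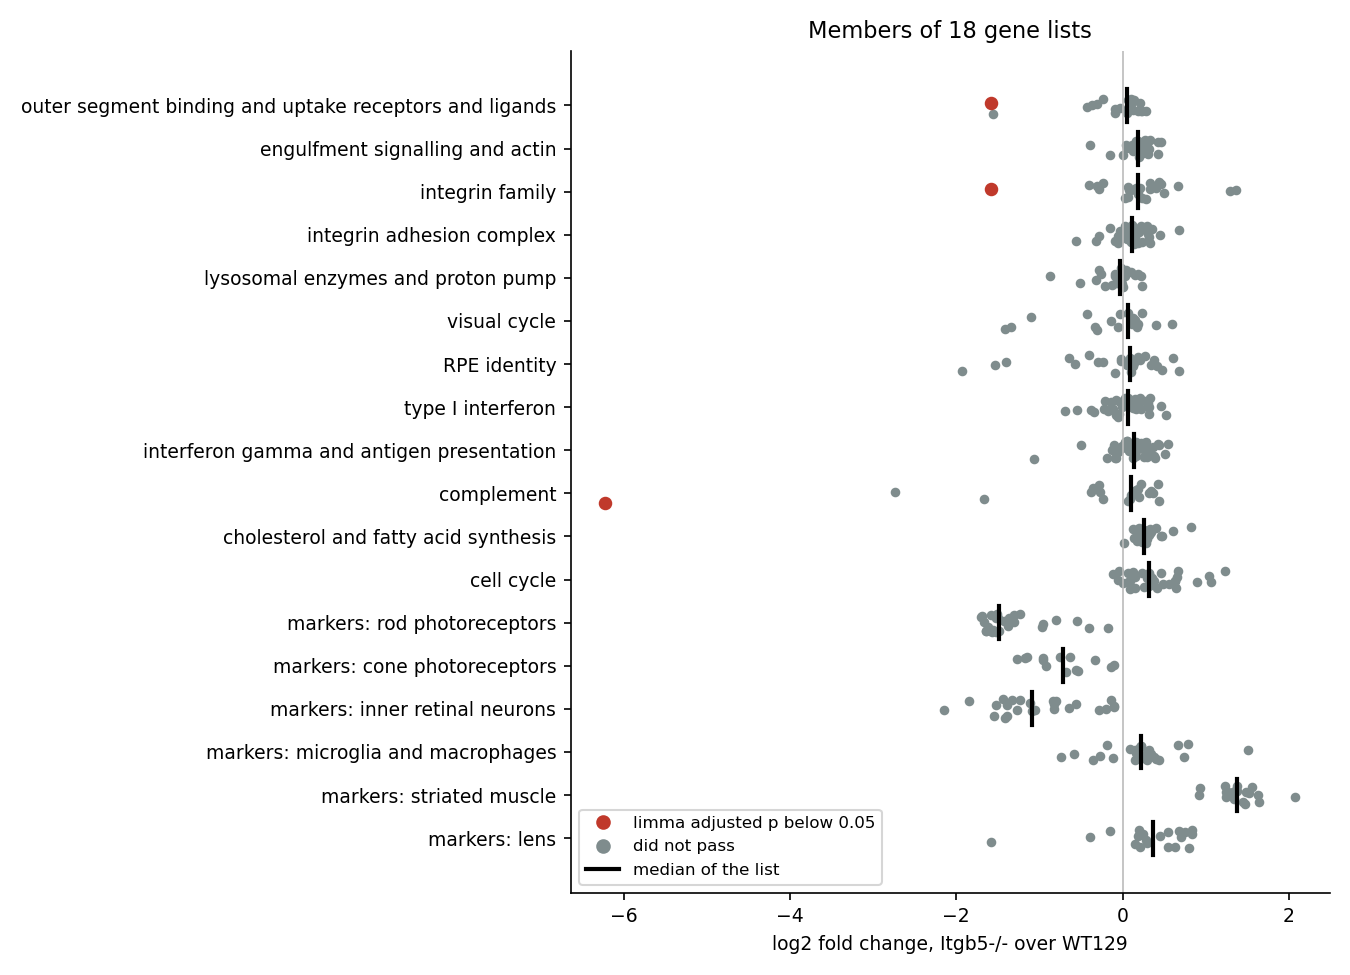
Log2 fold change of Itgb5-/- over WT129 (x axis) for the tested members of 18 gene lists (rows), 1 point a gene, with larger points for members past the threshold and a vertical bar at the median. The uptake, interferon and visual cycle lists centre near 0 (medians 0.05, 0.07 and 0.07), the rod list lies at a median of -1.49 and the muscle list at 1.38.

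The innate immune lists gave no common direction. Of 41 type I interferon genes none passed limma or DESeq2 and none had groups that did not overlap, beside 15.4% of all genes, with a median of 0.07. Their summed level was 35178, 51680 and 38665 in Itgb5-/- RPE and 64748, 21912 and 41968 in WT129 RPE, with the lowest and the highest library both in WT129. The median was -0.38 without WT129 replicate 2 and 0.43 without WT129 replicate 1. The 37 genes of the interferon gamma response and antigen presentation likewise had none past limma or DESeq2 and a median of 0.14, between -0.15 and 0.53 over the same settings. H2-Ab1, a class II antigen-presenting chain, had 370, 498 and 291 in Itgb5-/- RPE and 353, 224 and 236 in WT129 RPE.

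Of 20 tested complement genes C1s1 alone passed, and DESeq2 also called C1ra and Cfi, lower in Itgb5-/- RPE, beside 1.87% of all genes. Cfi, the protease factor I that inactivates C3b, had 11.5, 12.3 and 7.36 in Itgb5-/- RPE and 35.7, 23.8 and 47.8 in WT129 RPE (log2 fold change -1.67, limma adjusted p = 0.367). C3, the central component that the pathways converge on, had a log2 fold change of 0.42, and C1qb, a chain of C1q, of 0.44. Neither the 23 genes of JAK-STAT3 and retinal stress nor the 20 cytokine and chemokine genes had a member past limma or DESeq2, with medians of 0.13 each.

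The Mertk-/-V2Tyro3-/-V2 libraries give the other uptake mutant of the study. The 2 tables were normalized separately and the difference between the mutants was not tested, so the log2 values stand side by side, from Itgb5-/- over WT129 and from Mertk-/-V2Tyro3-/-V2 minus 3 C57BL/6 libraries, and the genes were picked for their change in Mertk-/-V2Tyro3-/-V2. The 20 genes picked as higher in Mertk-/-V2Tyro3-/-V2 had a median of -0.08 in Itgb5-/- and 1.77 in Mertk-/-V2Tyro3-/-V2. Of these, 9 were above 0 and 11 below 0 in Itgb5-/-. Limma called none, and DESeq2 called Lrrc2 and Cfi, both lower in Itgb5-/-, beside 1.87% of all genes. The Itgb5-/- median was -0.52 without WT129 replicate 2 and 0.22 without WT129 replicate 1. Cmpk2, an interferon-induced mitochondrial kinase, was at -0.54 in Itgb5-/- and 1.57 in Mertk-/-V2Tyro3-/-V2, and Ifit1, an interferon-induced RNA-binding protein, at -0.21 and 1.83. C4b, a classical pathway complement component, was at 0.19 and 2.15, and Lrrc2 at -1.80 and 2.70.

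The 13 tested genes picked as lower in Mertk-/-V2Tyro3-/-V2 had medians of 0.29 in Itgb5-/- and -1.53 in Mertk-/-V2Tyro3-/-V2, and none passed in Itgb5-/-. They include Tyro3, a targeted gene of Mertk-/-V2Tyro3-/-V2, at 0.28 in Itgb5-/- and -1.16 in Mertk-/-V2Tyro3-/-V2. Ins2, an insulin gene transcribed in the RPE, had 507, 509 and 458 in Itgb5-/- RPE and 410, 403 and 174 in WT129 RPE, a log2 fold change of 0.68, beside -4.57 in Mertk-/-V2Tyro3-/-V2. Rab37, a GTPase of secretory vesicles, was at 0.14 beside -3.05, and Rpe65 at 0.40 beside -1.53. The rod markers had medians of -1.49 in Itgb5-/- and 0.76 in Mertk-/-V2Tyro3-/-V2, and the muscle markers of 1.38 and -1.36. Against all 6 C57BL/6 libraries the medians in Mertk-/-V2Tyro3-/-V2 were -0.01 for rod and -0.58 for muscle markers, so those values depend on which C57BL/6 libraries are used.

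**Figure D5:**
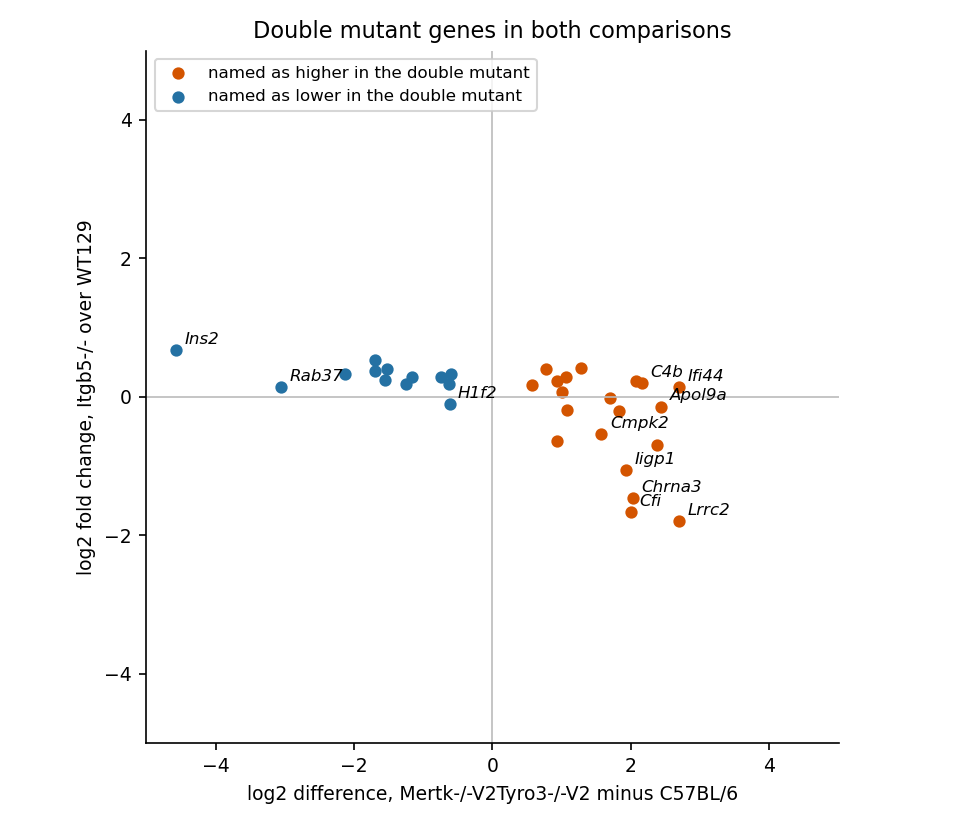
Log2 fold change of Itgb5-/- over WT129 (y axis) against the log2 difference of Mertk-/-V2Tyro3-/-V2 minus C57BL/6 (x axis) for the 20 genes picked as higher and the 13 tested genes picked as lower in the double mutant. Along the x axis the genes run from -4.57 (Ins2) to 2.70, whereas along the y axis they lie between -1.80 (Lrrc2) and 0.68 (Ins2). Tyro3, a targeted gene of the double mutant, is among those picked as lower.

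Metabolic lists held few called genes. All 26 tested genes of cholesterol and fatty acid synthesis had log2 fold changes above 0, with a median of 0.26 and 7 higher without overlap, beside 7.67% of all genes, and none passed. Without WT129 replicate 2 the median was 0.15. Dhcr7, the last enzyme of cholesterol synthesis, had 2107, 1865 and 1847 in Itgb5-/- RPE and 1534, 1365 and 1485 in WT129 RPE (0.41, limma adjusted p = 0.384), and Srebf2, the transcription factor of the pathway, was at 0.28. Of 17 genes of lipid efflux DESeq2 called Lpl lower, beside 1.87% of all genes. Lpl, the lipoprotein lipase, had 1004, 980 and 1189 in Itgb5-/- RPE and 1442, 2024 and 2353 in WT129 RPE. Of 25 glycolysis genes 7 were lower without overlap, beside 7.68% of all genes, and the median was -0.14, or -0.04 without WT129 replicate 2. DESeq2 called Hk1 lower, beside the same 1.87% of all genes. Hk1, a hexokinase that retina also expresses, had 5435, 5150 and 5758 in Itgb5-/- RPE and 7819, 10710 and 7407 in WT129 RPE. The 7 glycolysis genes were lower along with the rod markers, whose part in them was not tested.

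Genes of fatty acid oxidation and ketogenesis (29), the nuclear respiratory chain (39) and the mitochondrial genome (13) had medians of -0.03, 0.05 and -0.08 with no member past limma or DESeq2. Of 31 oxidative stress genes DESeq2 called Gpx3 lower, beside 1.87% of all genes. Of 26 genes of the unfolded protein response it called none (median 0.17, or 0.06 without WT129 replicate 2).

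The clock, cell cycle and early response genes complete the lists. Of 23 clock genes DESeq2 called Arntl lower, beside 1.87% of all genes. Arntl, which encodes the clock activator BMAL1, had 468, 504 and 434 in Itgb5-/- RPE and 680, 688 and 689 in WT129 RPE (log2 fold change -0.55, limma adjusted p = 0.353). Of 33 tested cell cycle genes 30 were above 0, with a median of 0.32 and 10 higher without overlap, beside 7.67% of all genes. DESeq2 called Mcm5 and Mcm6 of the replicative helicase higher, beside 0.434% of all genes. Mcm5 had 391.7, 698 and 454 in Itgb5-/- RPE and 293, 199 and 242 in WT129 RPE (1.04, limma adjusted p = 0.358). Without WT129 replicate 2 the median of the cell cycle list was 0.14. Of 28 immediate early genes and 25 cell death genes none passed limma or DESeq2, and Nr4a1, an early response receptor gene, had 247, 207 and 206 in Itgb5-/- RPE and 296, 371 and 306 in WT129 RPE (-0.56).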

How the data were processed

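Messenger RNA was sequenced from bulk RPE as paired ends, and the RNA had been purified with a column kit, per the labels' protocols. The submitters' processing notes name STAR, DESeq2, GRCm38 and mm10, without versions; the annotation and the counting program are not given in the sources used here. The deposited table holds a signal per gene, which the authors name a normalized count. Scaled by the smallest step of its library, 100% of the values above 0 came out as whole reads within 0.001 read, so 1 size factor per library had been applied. Of its 55421 lines, 3096 had no gene name and 3093 of these were named from GENCODE M21, which also gave positions on GRCm38. Replicates differed by more than sampling noise (chi-square per gene 35.5 to 113).

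Genes whose normalized count reached 10 in 3 or more libraries were tested by limma (version 3.58.1, R 4.3.3) on log2 of the value plus 1, using a mean-variance trend, robust shrinkage and group as the only term. Fold changes are on that log2 scale, which understates those of low genes. Tests were two-sided, with Benjamini-Hochberg adjustment over all genes tested. The same step was tested on simulated data. edgeR 4.0.16 and DESeq2 1.42.0 were run on the recovered reads. The median log2 fold change over all genes was 0.04. Copies were transcripts of at least 95% identity over at least 50% of the shorter transcript. A group at 0 was given a floor of 3 reads per library. Intervals cover the spread between libraries, and floors cover counting error only.

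The members, the gene lists and the tests were chosen with earlier results of these data known. Genes named were those of the uptake axis and visual cycle, those past the threshold, the next by p in each direction up to 8, the members of each list past the threshold or else 2 of smallest p, the 34 genes picked from the other mutant, and neighbours of Itgb5. A few more members of the lists, those called by DESeq2 or without overlap, and the genes of the copy families, were named after their values were seen. A few genes that fall under these rules are not reported here. Other settings were array weights, quantile normalization, TMM rescaling, a filter of 50 or none, pseudocounts of 0.5 and 10, a replicate block, a term for sex, windows of 5 and 20 Mb, all 6 C57BL/6 libraries and each library left out.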

Additional observations from a re-analysis of the deposited data

How the results depend on the processing

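The count of 7 genes was the same, with the same 7 genes, at pseudocounts of 0.5 and 10, at a filter of 50, and after TMM rescaling or quantile normalization. It was 19 with no filter, 13 with array weights, 5 with edgeR, 429 with DESeq2, and 0 with the replicate block and with a term for sex (1146 and 1340 at an unadjusted p below 0.05). Leaving out 1 library gave 0 to 10. The same-numbered libraries had centred correlations of -0.116, -0.0754 and 0.0336, so the numbers do not pair them, and calls lost under the replicate block say nothing about pairs. Itgb5 stayed between -1.71 and -1.47 (log2) when 1 library was left out, with adjusted p of 0.0209 to 0.257, and was at -1.58 with the replicate block (adjusted p = 0.160) and -1.50 with the sex term (0.0723), no longer past the threshold. Against all 6 C57BL/6 libraries, the median difference of Mertk-/-V2Tyro3-/-V2 was 1.53 for the 20 genes picked as higher and -1.25 for those picked as lower. Around Itgb5, 1 gene was called in windows of 5, 10 and 20 Mb. Of 46 gene lists, 22 had a median that turned sign in 1 or more of these settings, and the largest median among them was 0.37 (lens markers).

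The log2 fold changes that turned sign belonged to genes that did not pass. Axl was at -0.072, Ifi44 at -0.15, Oas1a at -0.044 and Csf1 at -0.051 with array weights. With the sex term Lrat was at 0.051, Ifi44 at -0.072 and Fgf2 at 0.057. Ifi44 was at -0.11 with edgeR and -0.11 with DESeq2, and Fgf2 at 0.035 with edgeR and 0.033 with DESeq2, and at 0.0200 after quantile normalization. With 1 library left out, Rac1 ranged from -0.00195 to 0.26, Mertk from -0.14 to 0.24, Pros1 from -0.11 to 0.51, Axl from -0.19 to 0.22, Cd36 from -0.47 to 0.18, Rlbp1 from -0.0354 to 0.28, Lrat from -0.12 to 0.0802, mt-Nd2 from -0.39 to 0.29, Ifit1 from -0.86 to 0.28, Ifi44 from -0.55 to 0.61, C4b from -0.0932 to 0.53, Oas1a from -0.19 to 0.69, Irgm2 from -0.72 to 0.38, Apol9a from -0.58 to 0.41, C1qc from -0.0565 to 0.43, Fgf2 from -0.35 to 0.25, Csf1 from -0.0923 to 0.30, Rab37 from -0.21 to 0.41 and Crygb from -0.36 to 1.81.
The cause was not tested. With 3 libraries a group, of which WT129 replicates 2 and 3 stand apart, the spread between libraries limits what can be called, and genes below the filter were not tested. Other tissues differ between the libraries, the sexes are uneven, and counts of near-identical genes depend on read placement.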
